A study of Mus musculus with 8 samples.

Results

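Matricellular proteins are secreted into the extracellular matrix without building its load-bearing fibers. They bind collagens, fibronectin, integrins and growth factors, and so tune how cells attach to the matrix and how TGF-beta reaches its receptors. In the adult heart most are held at a low level and are made again, largely by activated fibroblasts, when the myocardium is injured or overloaded. Fibronectin is the adhesive fiber that many of them bind. The transcripts of 10 such genes were examined: Fn1 (fibronectin), Postn (periostin), Sparc (osteonectin), Tnc (tenascin C), Thbs1 and Thbs4 (thrombospondins), Ctgf and Cyr61 (the CCN proteins, also named Ccn2 and Ccn1), Cilp (cartilage intermediate layer protein) and Spp1 (osteopontin). They were taken by symbol from the gene count table, and all 10 were found among its 43346 genes.

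RNA was sequenced from the cardiac ventricles of 8 male C57BL/6 mice. At 7 weeks of age, 4 mice were injected under the skin of the left flank with 1000000 LLC1 cells, a mouse lung carcinoma line from this strain, and 4 were injected with the vehicle, PBS. The ventricles were taken 14 days later, so that the comparison of the groups addressed how the heart differs in mice that carry this tumor. The tissue was whole ventricle with no sorting of cells, and a lower level in it cannot tell fewer cells of a type from less RNA per cell. Mice are called by group and label code (LLC1 1-2, 1-3, 1-5 and 2-2, and PBS 1-1, 1-3, 2-1 and 2-5). Levels are CPM (counts scaled to 1000000 per library) with the libraries adjusted by the trimmed mean of M-values (TMM), and a gene was called when its edgeR quasi-likelihood test gave a false discovery rate (FDR) under 0.05 over all 16111 genes tested.

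Library totals were 15342214 to 19747596 counts in LLC1 mice and 12480706 to 16192158 in PBS mice, so that 1 CPM was 12 to 20 counts. Over all genes tested, 743 were lower and 663 higher in LLC1 mice, and 793 and 225 when libraries were scaled by their totals alone. The groups were separated along the first principal component (31.5% of the variance), while the second (25.2%) set PBS 1-1 at 35.3 against -10.8 to -23.3 for the other PBS mice. The defining cardiomyocyte marker Myh6 was at 44721 to 56460 CPM in all 8 mice. The atrial markers Sln, Myl7 and Myl4 were at no more than 0.353, 2.04 and 2.94 CPM.

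Of the 10 genes, 9 passed the filter on low counts, and 6 of these 9 were lower in LLC1 mice (Postn, Sparc, Fn1, Thbs1, Tnc and Cilp), against 4.61% of all genes tested. None (0 of 9) was called higher by edgeR, DESeq2 or limma-voom, against 4.12% of all genes tested by edgeR, and at an unadjusted p under 0.05 Ctgf (1 of 9) was. The median log2 fold change of the 9 was -0.88, compared to -0.01 over all genes tested. For 4 of the 9 (Postn, Sparc, Thbs1 and Tnc) every LLC1 mouse lay below every PBS mouse, against 8.27% of all genes tested, and for none did every LLC1 mouse lie above, against 8.89%. The 6 became 3 (Postn, Sparc and Tnc) with robust empirical Bayes, under which calls over all genes went from 1406 to 1491, and 4 (Postn, Sparc, Thbs1 and Tnc) when LLC1 1-2, 1-3 or 1-5 or PBS 1-3 or 2-1 was left out. Ctgf, Cyr61 and Thbs4 were not called, and Spp1 had too few counts to be tested.

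**Figure D1:**
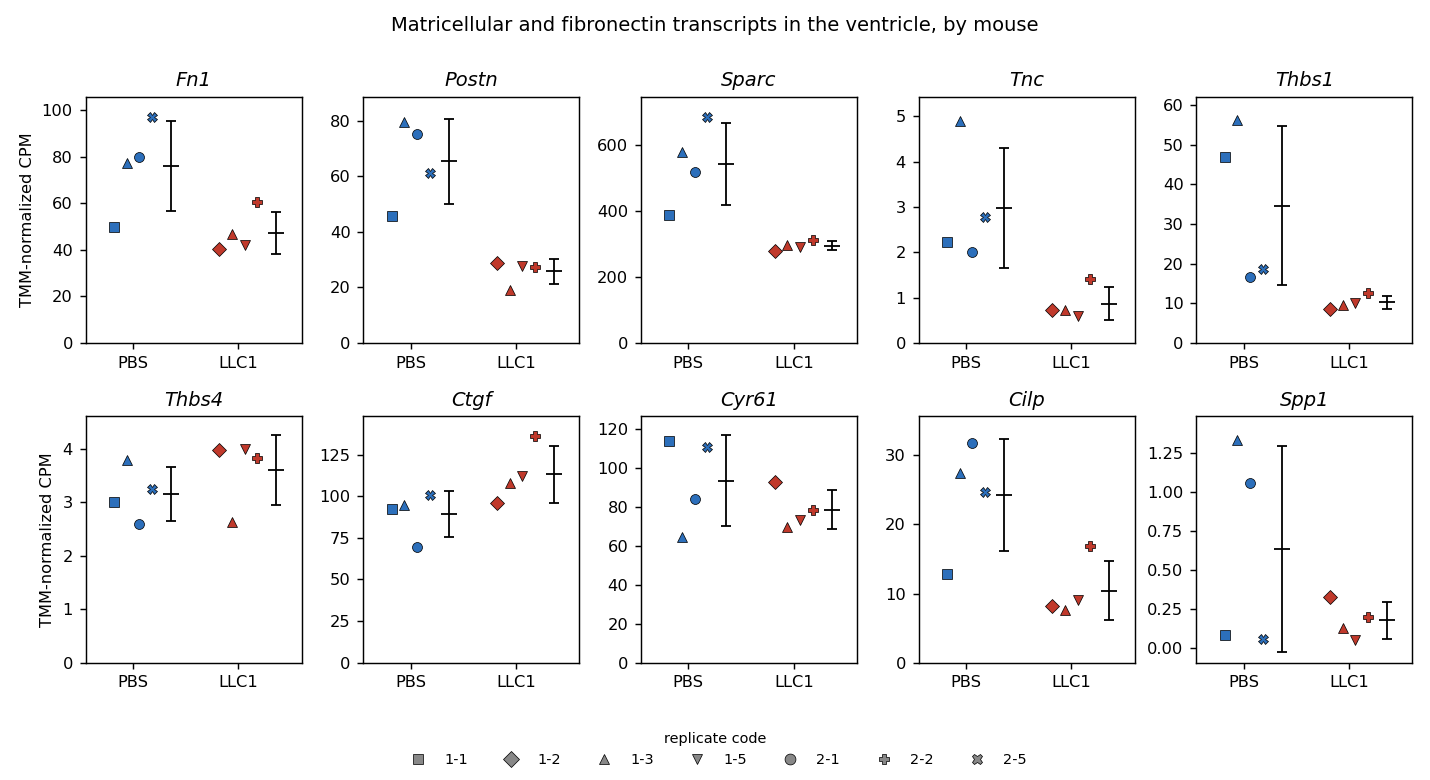
TMM-normalized CPM of each of the 10 genes (linear vertical axes from 0, except Spp1, whose axis is extended for its error bar) in the 4 PBS mice (blue) and the 4 LLC1 mice (red), with the marker shape giving the replicate code and the black bar the mean with its SD. The groups are apart for Postn, Sparc, Tnc and Thbs1, while Fn1 and Cilp overlap through PBS 1-1 and LLC1 2-2.

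The stretches just before the start sites of the genes that fell are shown first because regulation of transcription is read there, with Cyr61, which was not called, set beside them. The set of RefSeq promoters used here held 7 of the 10 genes (Postn, Sparc, Cyr61, Thbs4, Tnc, Spp1 and Cilp). Its start sites are on GRCm38.p6, the assembly that mm10 also names. The 130 bases before the start are printed 5′ to 3′ on the strand of the gene, for Postn chr3:54360977-54361106 (plus strand), Sparc chr11:55420081-55420210 (minus), Tnc chr4:64047016-64047145 (minus), Cilp chr9:65265050-65265179 (plus) and Cyr61 chr3:145649986-145650115 (minus). Capitals mark matches to TATAAA (a form of the TATA box), GGAATG (the TEAD core) or CAGACA (a SMAD core). Each was searched on both strands, and a match on the other strand shows as its reverse complement. Only these exact letters were searched, so the similar letters tatataag near the start of Cilp are not marked.
Postn: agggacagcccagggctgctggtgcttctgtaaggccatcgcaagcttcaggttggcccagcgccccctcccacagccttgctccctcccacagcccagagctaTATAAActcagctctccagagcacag
Sparc: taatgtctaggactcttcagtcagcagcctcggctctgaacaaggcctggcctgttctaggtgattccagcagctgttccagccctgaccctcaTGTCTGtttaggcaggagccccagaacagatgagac
Tnc: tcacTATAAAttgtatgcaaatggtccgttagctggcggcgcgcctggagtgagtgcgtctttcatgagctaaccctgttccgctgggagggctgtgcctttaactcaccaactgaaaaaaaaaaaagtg
Cilp: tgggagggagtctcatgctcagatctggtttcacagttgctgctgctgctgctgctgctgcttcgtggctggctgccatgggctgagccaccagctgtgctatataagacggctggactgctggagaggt
Cyr61: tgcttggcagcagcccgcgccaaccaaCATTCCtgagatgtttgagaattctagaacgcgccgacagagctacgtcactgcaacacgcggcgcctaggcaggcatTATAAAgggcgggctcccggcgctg

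In the 250 bases before the start, TATAAA was found for 4 of the 7 genes, compared to 12.4% of 32851 promoters. In Postn it lay 26 to 21 bases before the start and in Cyr61 25 to 20, so the same letters at nearly the same place preceded a gene that fell and one that was not called. In Tnc and Spp1 it lay farther off, 126 to 121 and 211 to 206 bases before the start. CAGACA was found for Sparc, Thbs4 and Spp1 (3 of 7, against 17.1% of promoters) and GGAATG for Cyr61 and Thbs4 (2 of 7, against 12.6%). TGANTCA (AP-1) and the CArG box of SRF were found for 0 of the 7, against 6.75% and 1.47% of promoters, which says only that those letters are not in these windows. The matches are described as letters, and no binding was measured.

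Fn1 forms the fibers of the provisional matrix that fibroblasts and platelets attach to. It spans chr1:71585520-71653200 in the mm10 coordinates of the count table. Its level was 40.2, 46.6, 42.0 and 60.3 CPM in LLC1 1-2, 1-3, 1-5 and 2-2, and 49.7, 77.4, 79.9 and 96.8 CPM in PBS 1-1, 1-3, 2-1 and 2-5. The groups overlapped, since LLC1 2-2 was above PBS 1-1. Mean Fn1 was 47.3 ± 9.12 CPM compared to 76.0 ± 19.5 CPM (SD, n = 4 each), a log2 fold change of -0.69 (SE 0.18, 95% interval -1.07 to -0.30) with an FDR of 0.0333. An exact permutation test of the difference in mean log2 CPM (2-sided) gave p = 0.0571. The call of Fn1 was lost when any of LLC1 1-2, 1-3 or 1-5 or PBS 1-3, 2-1 or 2-5 was left out (FDR 0.0971, 0.0894, 0.0964, 0.0898, 0.0732 and 0.0595), with log2 fold changes of -0.68 to -0.55 in those fits, and held without PBS 1-1 (log2 fold change -0.84, FDR 0.00143) or without LLC1 2-2 (-0.83, FDR 0.0256). It was also lost with robust empirical Bayes (FDR 0.0839) and among the mice whose code starts with 1 (FDR 0.0704).

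Postn, at chr3:54361109-54391034, encodes periostin, which is made by activated cardiac fibroblasts, binds integrins and promotes collagen cross-linking. Postn was at 28.8, 19.2, 27.6 and 27.4 CPM in LLC1 1-2, 1-3, 1-5 and 2-2 compared to 45.9, 79.4, 75.3 and 61.1 CPM in PBS 1-1, 1-3, 2-1 and 2-5. All LLC1 mice lay below all PBS mice. The mean was 25.8 ± 4.40 CPM in LLC1 mice and 65.4 ± 15.2 CPM in PBS mice (SD, n = 4 each), with a log2 fold change of -1.35 (SE 0.17, 95% interval -1.71 to -0.99), a level 0.393 times that in PBS mice, and an FDR of 0.00113. The exact permutation test gave p = 0.0286, the smallest that 4 mice against 4 allow. Leaving out any 1 mouse kept the log2 fold change of Postn between -1.48 and -1.23 with an FDR of at most 0.00653.

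Sparc, at chr11:55394500-55420080, encodes a collagen-binding protein that takes part in the processing and deposition of procollagen, and it had the highest level per length of the 10 genes. It was at 279, 297, 289 and 313 CPM in LLC1 1-2, 1-3, 1-5 and 2-2, and at 388, 578, 517 and 682 CPM in PBS 1-1, 1-3, 2-1 and 2-5. The LLC1 mice were close together, and all lay below the PBS mice, which were spread more widely. Mean Sparc was 294 ± 14.2 CPM compared to 541 ± 123 CPM (SD, n = 4 each), a log2 fold change of -0.88 (SE 0.13, 95% interval -1.17 to -0.59, FDR 0.00343, exact permutation p = 0.0286). Leaving out single mice kept it between -1.01 and -0.75.

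Tnc encodes tenascin C, a large glycoprotein that weakens the adhesion of cells to fibronectin and is nearly absent from healthy adult myocardium. It spans chr4:63959785-64047015, and it had the lowest level per length of the 9 of these genes that were tested. It gave 11, 11, 11 and 28 counts in LLC1 1-2, 1-3, 1-5 and 2-2, and 26, 70, 34 and 47 counts in PBS 1-1, 1-3, 2-1 and 2-5. After scaling for depth these were 0.602 to 1.41 CPM and 2.00 to 4.91 CPM, so the groups did not overlap, although the raw counts of LLC1 2-2 and PBS 1-1 did. The log2 fold change of Tnc was -1.74 (SE 0.35, 95% interval -2.50 to -0.99, FDR 0.0119, exact permutation p = 0.0286). The interval is wide, and leaving out 1 mouse moved the estimate between -2.12 (without LLC1 2-2) and -1.41 (without PBS 1-3), with an FDR of at most 0.0429. Among the mice whose code starts with 1 it was -2.40 (FDR 0.0124).

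Cilp, at chr9:65265180-65280605, encodes a secreted matrix protein known as an antagonist of TGF-beta1. It was at 8.20, 7.57, 9.08 and 16.8 CPM in LLC1 1-2, 1-3, 1-5 and 2-2 compared to 12.9, 27.3, 31.8 and 24.7 CPM in PBS 1-1, 1-3, 2-1 and 2-5. As with Fn1, the groups overlapped in the same pair of mice, LLC1 2-2 being above PBS 1-1. The log2 fold change was -1.21 (SE 0.28, 95% interval -1.82 to -0.60, FDR 0.0214, exact permutation p = 0.0571). The call of Cilp was lost without LLC1 1-2, 1-3 or 1-5 or without PBS 1-3 or 2-1 (FDR 0.0689, 0.0690, 0.0649, 0.0692 and 0.0585), with log2 fold changes of -1.16 to -1.06 in those fits, and it held without PBS 1-1 (-1.40, FDR 0.00160), PBS 2-5 (-1.21, FDR 0.0320) or LLC1 2-2 (-1.56, FDR 0.00915). With robust empirical Bayes the FDR was 0.0822.

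PBS 1-1, which stood apart on the second principal component, had the lowest PBS value of Postn, Sparc, Fn1 and Cilp. LLC1 2-2 had the highest LLC1 value of 5 of the 6 genes called, all except Postn. Without PBS 1-1, the same 6 genes were called, each lower. The plot of estimates with a mouse left out shows that the direction did not depend on any 1 mouse for any of the 9 genes.

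**Figure D2:**
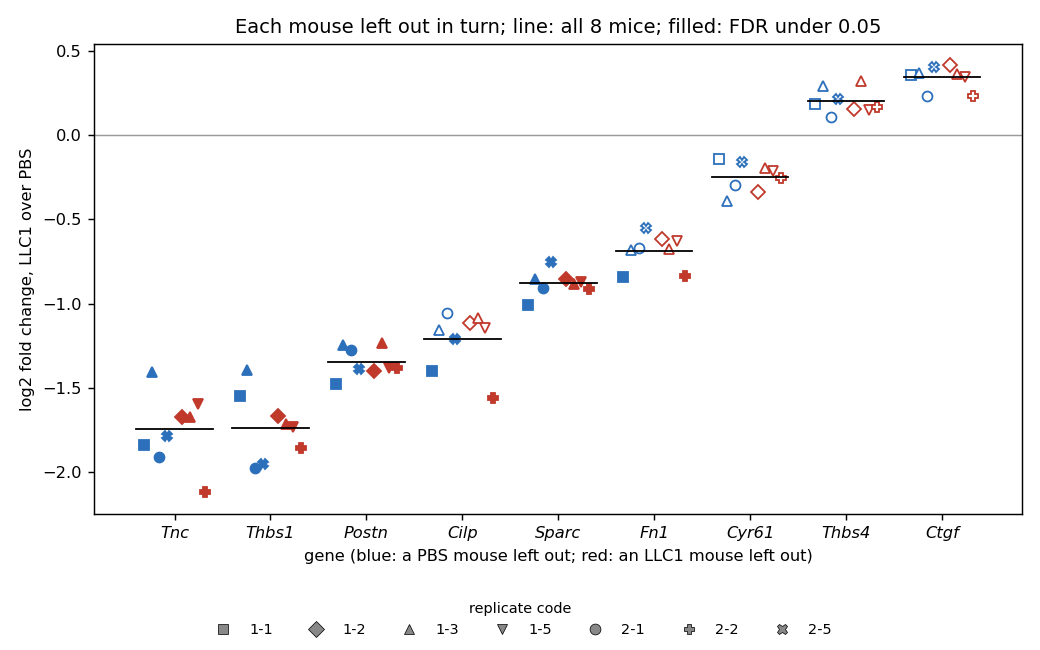
Log2 fold change (LLC1 over PBS) of the 9 genes tested, with each mouse left out in turn. Blue points leave out a PBS mouse, red points an LLC1 mouse, the shape gives its replicate code, the black line is the estimate from all 8 mice, and filled points have an FDR under 0.05. Fn1 keeps its call in 2 of the 8 fits and Cilp in 3, while Postn, Sparc, Thbs1 and Tnc keep it in all 8.

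The thrombospondins bind calcium, heparan sulfate and cell surface receptors. Thbs1, at chr2:118111876-118127133, is the member known for activating latent TGF-beta and for its receptors CD36 and CD47, and it is stored in platelets as well as made by stromal cells. It was at 8.60, 9.68, 10.1 and 12.5 CPM in LLC1 1-2, 1-3, 1-5 and 2-2. In PBS 1-1 and 1-3 it was at 47.0 and 56.2 CPM and in PBS 2-1 and 2-5 at 16.5 and 18.5 CPM, so that the PBS mice fell into a high pair and a low pair that followed the first number of the code. All LLC1 mice lay below both pairs. The log2 fold change of Thbs1 was -1.74 (SE 0.35, 95% interval -2.50 to -0.97, FDR 0.0127, exact permutation p = 0.0286). Among the 3 LLC1 and 2 PBS mice whose code starts with 1 it was -2.45 (FDR 3.34e-05), and with that number as a covariate it was -1.76 (FDR 0.00461). With robust empirical Bayes its FDR was 0.0748. Only 1 LLC1 mouse has a code that starts with 2, at 12.5 CPM against 16.5 and 18.5, too few for a test within that set. What the first number stands for is not given in the sources used here.

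Thbs4, at chr13:92751590-92794818, is known for its induction in the overloaded heart and for a role in the endoplasmic reticulum. It was at 3.97, 2.63, 3.99 and 3.82 CPM in LLC1 1-2, 1-3, 1-5 and 2-2 and at 3.00, 3.79, 2.59 and 3.25 CPM in PBS 1-1, 1-3, 2-1 and 2-5. The groups overlapped through LLC1 1-3 alone, since the other 3 LLC1 mice lay above every PBS mouse, and the log2 fold change was 0.20 (95% interval -0.19 to 0.59, FDR 0.522). It was 0.32 (FDR 0.308) without LLC1 1-3 and 0.10 (FDR 0.781) without PBS 2-1. The interval leaves room for a rise of up to 0.59 and excludes a fall of the size seen for Thbs1.

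The closest relative of Thbs1, Thbs2, went the other way. Thbs2, a thrombospondin of fibroblasts that does not activate latent TGF-beta, was at 44.2, 38.8, 30.2 and 33.1 CPM in LLC1 1-2, 1-3, 1-5 and 2-2 compared to 14.9, 19.4, 27.2 and 27.9 CPM in PBS 1-1, 1-3, 2-1 and 2-5. All LLC1 mice lay above all PBS mice, with a log2 fold change of 0.69 (SE 0.18, FDR 0.0323, exact permutation p = 0.0286). The PBS mice whose code starts with 1 were high in Thbs1 and low in Thbs2. The ratio of Thbs1 to Thbs2 CPM was 0.195 to 0.377 in LLC1 mice and 0.608 to 3.15 in PBS mice, a difference of -2.31 in mean log2 ratio. This pair was chosen after its values were seen, and as both genes were apart between the groups the ratio had to be, so it is given with no test. Thbs3 (-0.08, FDR 0.664) and Comp (-0.14, FDR 0.774), the remaining thrombospondins, had intervals that included 0.

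**Figure D3:**
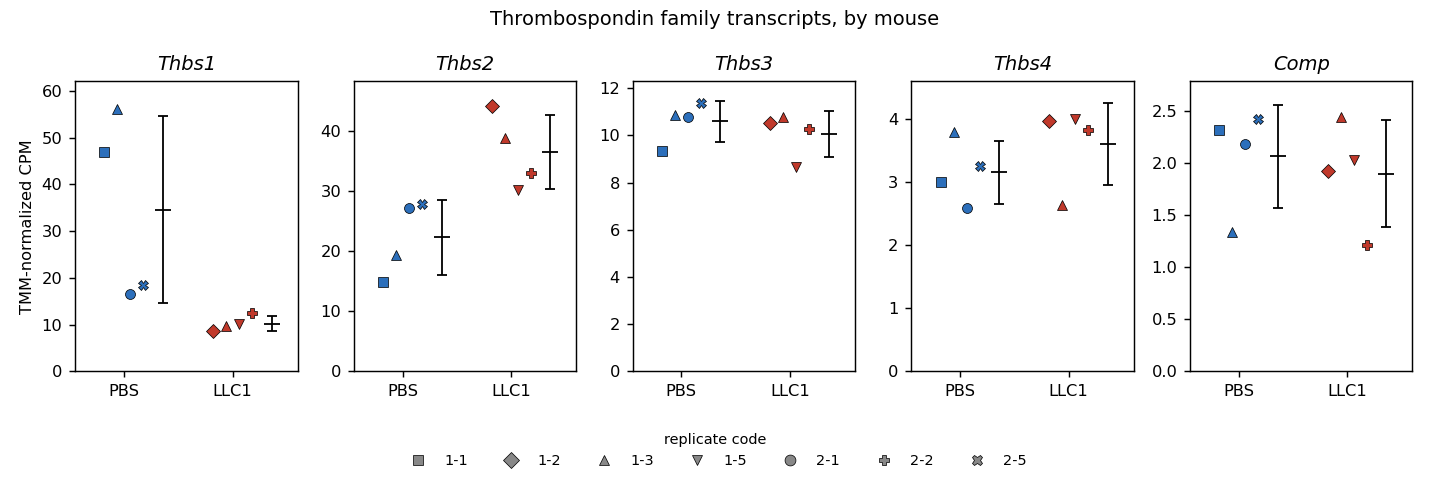
TMM-normalized CPM (linear axes from 0) of the 5 thrombospondin genes in the PBS mice (blue) and LLC1 mice (red), with the replicate code as the marker shape and the mean and SD in black. Thbs1 is lower and Thbs2 higher in every LLC1 mouse, and in PBS mice 1-1 and 1-3 Thbs1 is high where Thbs2 is low.

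Ctgf and Cyr61 are cysteine-rich CCN proteins that bind integrins, and both are widely used as target genes of YAP and TEAD. Ctgf, at chr10:24595442-24598683, was at 95.9, 108, 112 and 136 CPM in LLC1 1-2, 1-3, 1-5 and 2-2 and at 92.4, 95.0, 69.4 and 101 CPM in PBS 1-1, 1-3, 2-1 and 2-5. Only PBS 2-5 lay above an LLC1 mouse. The log2 fold change was 0.34 (95% interval 0.07 to 0.61), with p = 0.0168 before and an FDR of 0.108 after adjustment in edgeR, and the exact permutation p was 0.0571. When all 27383 genes with at least 1 count were tested, its FDR was 0.0442, with libraries scaled by totals alone it was 0.197 (log2 fold change 0.29), and among the mice whose code starts with 1 it was 0.279 (0.17). Of the exon bases of Ctgf, 23.2% overlap Gm15270, a gene on the other strand, in GENCODE M21. Whether the counting used strand is not given in the sources used here. Gm15270 was itself called higher (log2 fold change 0.54, FDR 0.0241), with 456 to 867 counts in LLC1 mice and 280 to 465 in PBS mice. The part of this overlap in the value of Ctgf was not tested.

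Cyr61, at chr3:145646971-145649985, was at 92.5, 69.7, 73.3 and 78.3 CPM in LLC1 1-2, 1-3, 1-5 and 2-2 and at 114, 64.4, 84.2 and 111 CPM in PBS 1-1, 1-3, 2-1 and 2-5. All LLC1 mice lay within the range of the PBS mice, and the log2 fold change was -0.25 (95% interval -0.59 to 0.09, FDR 0.347). The low end of the PBS range was PBS 1-3 alone, and without it the log2 fold change of Cyr61 was -0.39 (FDR 0.101), compared to -0.14 (FDR 0.577) without PBS 1-1 and -0.16 (FDR 0.555) without PBS 2-5. The ratio of Ctgf to Cyr61 CPM was 1.04 to 1.74 in LLC1 mice and 0.812 to 1.47 in PBS mice (difference in mean log2 ratio 0.56). It is given with no p-value, as the pair was chosen after its values were seen. Across the 8 mice, the deviations of Ctgf and Cyr61 from their group means had a Pearson r of 0.04.

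Spp1, at chr5:104435118-104441050, encodes osteopontin, a secreted integrin ligand made in the injured heart mainly by macrophages. It gave 5, 2, 1 and 4 counts in LLC1 1-2, 1-3, 1-5 and 2-2 and 1, 19, 18 and 1 counts in PBS 1-1, 1-3, 2-1 and 2-5. PBS 1-3 and 2-1 were higher than every other mouse, and the other PBS mice lay within the LLC1 mice. The exact permutation p was 0.371, with this spread between PBS mice and at most 19 counts in a mouse. Of its exon bases, 18.8% overlap Gm42793 on the same strand.

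Per kilobase of the gene length in the table, mean PBS levels ran from Sparc (161 CPM per kb) over Cyr61 (46.0), Ctgf (31.2), Postn (8.35), Fn1 (6.50), Thbs1 (5.69), Cilp (5.69) and Thbs4 (0.960) to Spp1 (0.385) and Tnc (0.383). In PBS mice Cyr61 and Ctgf overlapped each other (31.8 to 56.1 and 24.3 to 35.2 CPM per kb), as did Postn, Fn1, Thbs1 and Cilp (2.72 to 10.1 CPM per kb over these 4 genes) and as did Thbs4, Spp1 and Tnc from neighbor to neighbor. In LLC1 mice the order was Sparc (87.5 CPM per kb), Ctgf (39.6), Cyr61 (38.7), Fn1 (4.04), Postn (3.29), Cilp (2.45), Thbs1 (1.68), Thbs4 (1.10), Tnc (0.111) and Spp1 (0.109). Each of Fn1, Postn, Cilp and Thbs1 overlapped its neighbor among these 4 in LLC1 mice, and so did Ctgf with Cyr61 and Tnc with Spp1. Sparc stood clear of the other 9 genes in both groups.

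The genes that fell did not all vary together within the groups. Over the 8 mice, deviations from the group mean of log2 CPM had a Pearson r of 0.90 for Fn1 and Sparc, 0.84 for Fn1 and Cilp and 0.72 for Postn and Cilp. Among the genes that fell, Thbs1 had an r of 0.57 with Tnc, -0.38 with Fn1, -0.37 with Sparc, -0.22 with Cilp and -0.13 with Postn. These r are descriptions over 8 mice that share libraries and scaling. Of 11347 genes at a mean of at least 5 CPM, those whose log2 CPM had the highest Pearson r over the 8 mice were Acvr1 and Fstl1 (0.98 each) and Aspn (0.97) for Postn, Col1a2 and Ehd2 (0.99 each) and Srgap2 (0.98) for Fn1, A230046K03Rik and Zfp449 (0.97 each) and Fnbp1l (0.96) for Thbs1, and Pias4, Wbp1l (0.97 each) and Nob1 (0.96) for Ctgf. Each r holds the difference between the groups as well as the variation within them.

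Relatives of the 10 genes by family, with some other matrix proteins listed among them, were read in the same fit. Of 22 relatives 16 were tested, and 4 were lower and 2 higher, against 4.61% and 4.12% of all genes tested. The same shares stand beside every list read below. By limma-voom 3 relatives were lower and 2 higher, and without PBS 1-1 5 were lower and 2 higher. In the SPARC family, Fstl1 (follistatin-like 1) was at 66.1 to 79.4 CPM in LLC1 mice and 105 to 145 CPM in PBS mice, a log2 fold change of -0.87 (SE 0.10, FDR 0.000876), close in size to that of Sparc. Sparcl1 fell by 0.45 on the log2 scale (SE 0.08, FDR 0.00993). Spock2, a testican proteoglycan of this family, was at 20.8 to 26.3 CPM in LLC1 mice and 9.25 to 18.8 CPM in PBS mice, a log2 fold change of 0.97 (SE 0.19, FDR 0.0117). The ratio of Sparc to Spock2 was 11.2 to 13.9 in LLC1 mice and 31.6 to 62.5 in PBS mice (difference in mean log2 ratio -1.88), a description only, since the pair was chosen for its opposite directions. Smoc1 and Smoc2 were not called.

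Spon2, an F-spondin relative, was at 4.78 to 5.27 CPM in LLC1 mice and at 17.8, 14.1, 9.36 and 4.90 CPM in PBS 1-1, 1-3, 2-1 and 2-5, with an FDR of 0.0317, and PBS 2-5 lay within the LLC1 mice. Vtn, vitronectin, fell by 0.34 (SE 0.09, FDR 0.0320). Among the CCN relatives, Wisp1 had a log2 fold change of -0.53 (FDR 0.116), Wisp2 0.60 (FDR 0.217) and Nov 0.07 (FDR 0.813). Tenascin X (Tnxb), the most abundant tenascin here, was at 0.02 (FDR 0.926), while Tnr and Tnn had too few counts to be tested. Tgfbi, a relative of Postn, had a log2 fold change of -0.21 (FDR 0.354).

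**Figure D4:**
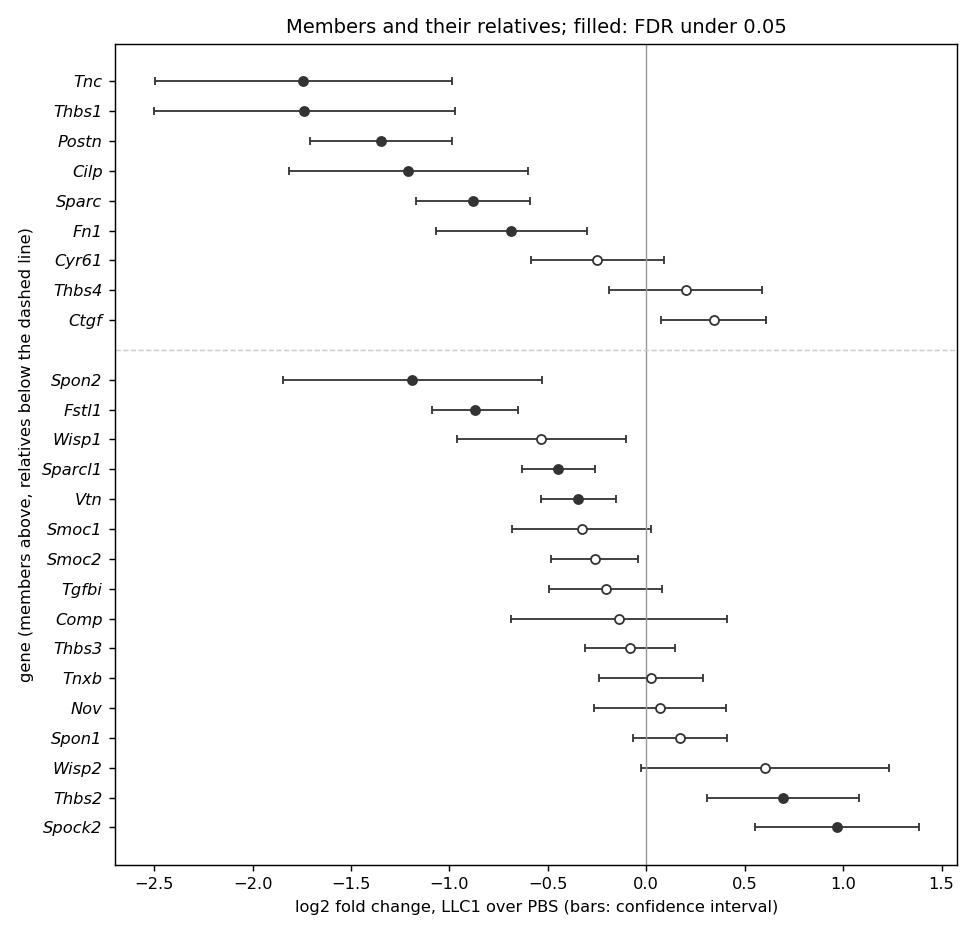
Log2 fold change (LLC1 over PBS) with its 95% interval for the 9 genes tested (above the dashed line) and 16 of their relatives (below). Filled points have an FDR under 0.05. All 6 filled points above the line are negative, while below it Fstl1, Sparcl1, Spon2 and Vtn are lower and Thbs2 and Spock2 higher.

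Of 18 receptors of these proteins, 5 were lower and 0 higher by edgeR, against 4.61% and 4.12% of all genes tested. DESeq2 called 7 lower and 0 higher, and limma-voom 5 and 0. At an unadjusted p under 0.05 in edgeR, 8 were lower and 1, Itgb5, was higher. The median log2 fold change of the 18 was -0.18. The 5 called by edgeR were Itga4 (-0.62, FDR 0.0238), a receptor of fibronectin and osteopontin, Itga8 (-0.65, FDR 0.0336), which binds fibronectin and tenascin C, Itga9 (-0.42, FDR 0.0275), a tenascin C receptor, Itgb6 (-0.73, FDR 0.0127), which pairs with the alpha v chain and activates latent TGF-beta, and Cd44 (-0.51, FDR 0.0273), an osteopontin receptor. The main fibronectin receptor chains Itga5 (-0.17, FDR 0.221) and Itgb1 (-0.19, FDR 0.0729) and the Thbs1 receptors Cd36 (0.09, FDR 0.393) and Cd47 (-0.13, FDR 0.220) were not called by edgeR. DESeq2 added Itgb1 (adjusted p 0.0230) and Itgav (adjusted p 0.0374).

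Of 14 TGF-beta and SMAD genes, Tgfb1 fell by 0.44 (FDR 0.0384) and its receptor Tgfbr1 by 0.33 (FDR 0.0174), and the other 12 were not called. Over all genes tested 4.61% were lower and 4.12% higher, and these shares also stand beside the YAP lists that follow. Without PBS 1-1, 4 of the 14 TGF-beta and SMAD genes were lower. Of 11 YAP, TAZ, TEAD and SRF factors, Wwtr1, which encodes TAZ, fell by 0.23 (FDR 0.0214) and Tead3 was higher by 0.36 (FDR 0.0460). Without PBS 1-1, 1 of the 11 was lower and 2 were higher. Of 16 other YAP and TAZ target genes tested, Nuak2 fell by 0.47 (FDR 0.0279), Igfbp3 rose by 0.51 (FDR 0.0319) and 14 were not called, with a median log2 fold change of 0.07. Without PBS 1-1 the same list had 4 lower and 2 higher, and by DESeq2 1 lower and 3 higher.

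The level per amount of fibroblast RNA was compared because fibroblasts make several of the 10 proteins. Of 6 fibroblast markers (Pdgfra, Tcf21, Dpt, Dcn, Lum and Ddr2), 2 were lower, the collagen-binding Lum (-0.62, FDR 0.00105) and Ddr2 (-0.50, FDR 0.00217). DESeq2 called 3 lower, adding Dpt, which was at 68.2 to 75.3 CPM in LLC1 mice and 79.4 to 89.3 CPM in PBS mice (-0.21, edgeR FDR 0.0589), so that 3 of the 6 were lower in every LLC1 mouse. Tcf21 had a log2 fold change of -0.21 (FDR 0.331), the defining marker Pdgfra -0.07 (FDR 0.654) and Dcn 0.07 (FDR 0.612), and the median of the 6 was -0.21. The summed CPM of the 6 was 596 to 707 in LLC1 mice and 639 to 695 in PBS mice (exact permutation p = 0.343). Most of that sum was Dcn, at 400 to 496 CPM in LLC1 mice and 388 to 437 CPM in PBS mice, so it follows Dcn more than the markers that fell. Relative to that sum, which holds none of the 10 genes, Postn was 3.13% to 4.63% in LLC1 mice and 6.99% to 12.4% in PBS mice, and Sparc 39.5% to 49.4% and 59.1% to 101%. The difference in mean log2 ratio was -1.27 for Postn, -0.78 for Sparc, -1.50 for Thbs1 and -1.71 for Tnc, each with groups that did not overlap (exact permutation p = 0.0286). For Cilp it was -1.15 (exact p = 0.0571) and for Fn1 -0.60 (exact p = 0.0857), with groups that overlapped. For Ctgf the difference was 0.41 (exact p = 0.114), for Thbs4 0.25 (exact p = 0.257) and for Cyr61 -0.15 (exact p = 0.400). With the mean of the log2 CPM of the 6 markers in place of their sum, which weights them equally, the difference was -1.08 for Postn, -0.59 for Sparc, -1.31 for Thbs1 and -1.52 for Tnc (exact p = 0.0286 each), -0.96 for Cilp (exact p = 0.0571) and -0.41 for Fn1 (exact p = 0.171). On that scale Cyr61 turned sign (0.04, exact p = 0.857) and Ctgf was higher in every LLC1 mouse (0.60, exact p = 0.0286), whereas relative to Dcn alone Ctgf was at 0.28 (exact p = 0.229).

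A list of activated fibroblast and myofibroblast genes other than the 10, chosen with earlier results of these data known, was read beside them. Of 9 tested, 6 were lower (against 4.61% of all genes tested) and 0 higher by edgeR, 7 and 0 by DESeq2 and 4 and 0 by limma-voom, with 0 higher at an unadjusted p under 0.05. The 6 were the collagens Col1a1 (-0.60, FDR 0.0456), Col1a2 (-0.63, FDR 0.0198) and Col3a1 (-0.98, FDR 0.00683), the collagen cross-linker Loxl2 (-1.02, FDR 0.000234), the fibroblast transcription factor Meox1 (-1.30, FDR 0.000489) and the microfibril protein Mfap4 (-1.31, FDR 0.0232). Acta2, the smooth muscle actin of myofibroblasts, had a log2 fold change of -0.54 (FDR 0.0595), Fap -0.57 (FDR 0.110) and Lox -0.03 (FDR 0.926), and these 3 were not called. The summed CPM of the list was 478 to 664 in LLC1 mice and 722 to 1186 in PBS mice, and did not overlap between the groups. Most of that sum was collagen, with Col3a1 at 190 to 264 CPM in LLC1 mice and 286 to 570 CPM in PBS mice. Col1a1 was at 80.2 to 124 CPM and 110 to 198 CPM, and Col1a2 at 115 to 155 CPM and 143 to 243 CPM. The sum therefore follows these collagens more than the rest of the list.

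Markers of other cell types that make these proteins also moved in part, and their share in the results above was not tested. Of 6 endothelial markers Kdr (-0.61, FDR 0.00132) and Emcn (-0.31, FDR 0.0205) were lower by edgeR (3 of 6 by DESeq2), and their summed CPM was 728 to 840 in LLC1 mice and 824 to 1084 in PBS mice. Of 7 macrophage markers Lyz2 (-0.57, FDR 0.0126) and Mrc1 (-0.42, FDR 0.0301) were lower, with sums of 241 to 297 and 266 to 388 CPM, and without PBS 1-1 both lists had 4 lower. Of 4 platelet markers tested Pf4 was lower (-0.59, FDR 0.0104), the sum of the list being 14.7 to 22.2 CPM in LLC1 mice and 21.1 to 24.6 CPM in PBS mice. Across the high and low pairs of PBS mice in Thbs1, the platelet markers differed among themselves. In PBS 1-1, 1-3, 2-1 and 2-5, Ppbp was at 2.14, 1.47, 0.883 and 0.708 CPM and Gp1ba at 6.43, 5.40, 5.18 and 4.60 CPM, both higher in the pair that was high in Thbs1. Pf4 was at 12.9, 12.7, 13.7 and 12.9 CPM and Itga2b at 2.49, 2.17, 2.47 and 2.60 CPM, with no such order, and Gp9 was at no more than 0.686 CPM.

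None of 6 smooth muscle and pericyte markers was called by edgeR, DESeq2 or limma-voom, while 2 were lower at an unadjusted p under 0.05 (sums of 696 to 799 and 791 to 948 CPM). Of 7 cardiomyocyte markers Myh6 was higher by edgeR (0.24, FDR 0.0209), limma-voom added Tnnt2 (2 of 7) and DESeq2 Tnnt2 and Actn2 (3 of 7), and these 3 were higher in every LLC1 mouse. Without PBS 1-1 edgeR called 3 of 7 higher, and over all 8 mice the sum of the 7 was higher in every LLC1 mouse, 86040 to 89998 CPM compared to 74299 to 78737 CPM (exact permutation p = 0.0286). Most of that sum was Myh6, at 53471 to 56460 CPM in LLC1 mice and 44721 to 47606 CPM in PBS mice, while Tnni3 (0.20, FDR 0.158), Ryr2 (-0.17, FDR 0.351), Pln (0.03, FDR 0.808) and Myl2 (0.13, FDR 0.372) were not called by edgeR and overlapped between the groups. At an unadjusted p under 0.05, 4 of the 7 were higher, namely Myh6, Tnnt2, Actn2 and Tnni3. Of 7 tendon, cartilage and valve markers 3 were tested and none was called. The sums of all 7 were 5.69 to 16.6 CPM in LLC1 mice and 7.77 to 11.2 CPM in PBS mice, with Tnmd at 0 in all 8 mice. Of 2 atrial markers tested none was called, and Myl4 was lower at an unadjusted p under 0.05 (-0.59, FDR 0.0985).

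**Figure D5:**
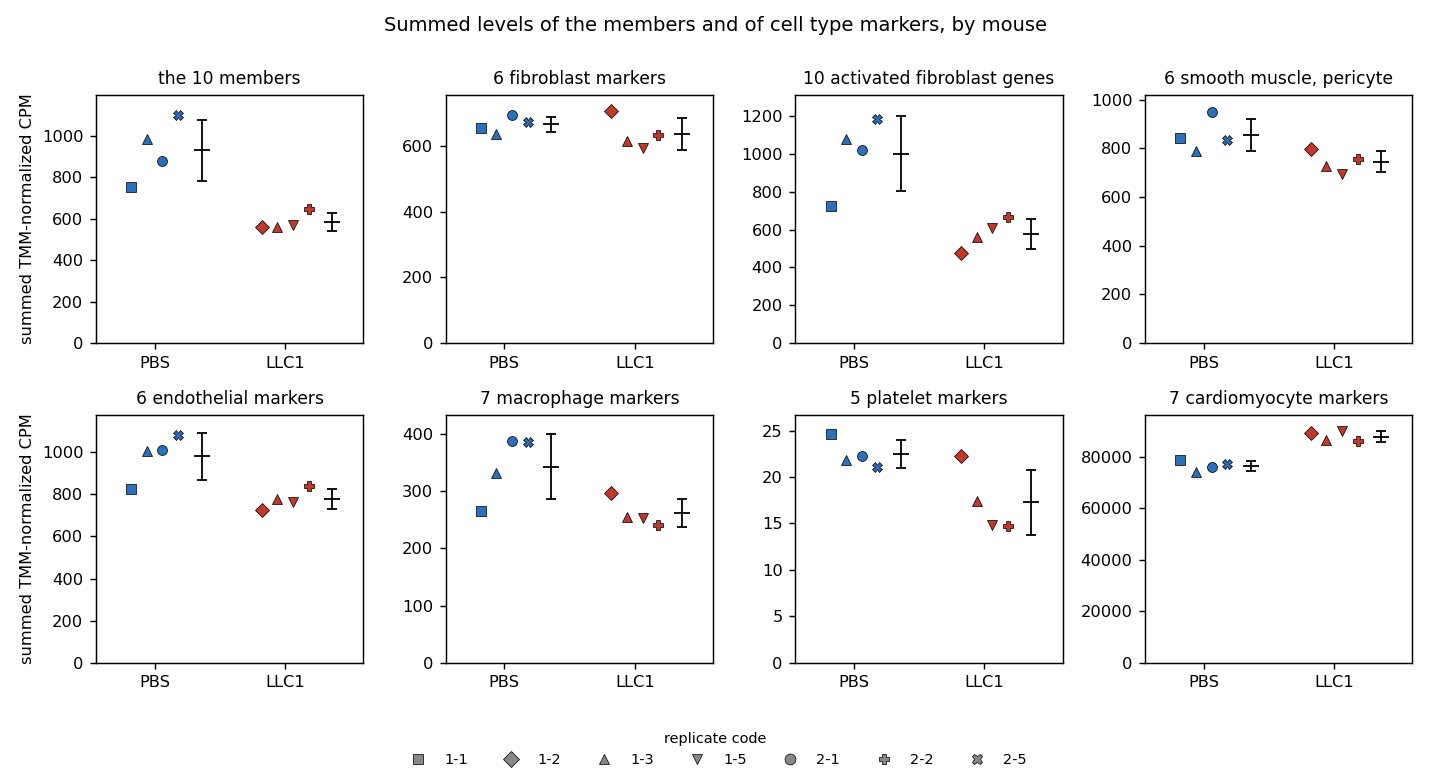
Summed TMM-normalized CPM (linear axes from 0) of the 10 genes and of 7 lists of cell type or activation markers in the PBS mice (blue) and LLC1 mice (red), with the replicate code as the marker shape and the mean and SD in black. The sum of the 10 genes lies lower in every LLC1 mouse, with Sparc its largest part (mean 294 of 584 CPM in LLC1 mice and 541 of 931 CPM in PBS mice). That of the activated fibroblast genes, mostly Col1a1, Col1a2 and Col3a1, also lies lower in every LLC1 mouse. That of the cardiomyocyte markers, mostly Myh6, lies higher, and those of the other 5 lists overlap.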

How the data were processed

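Per the labels and the methods of the study, TruSeq RNA v2 libraries of total RNA were sequenced as paired-end Illumina reads and mapped to mm10. The submitters' processing notes name CASAVA, STAR and featureCounts. The gene annotation and the strand setting are not given in the sources used here. The authors deposited raw counts per gene with a gene length, and no normalization had been applied.

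Counts were fitted with edgeR 4.0.16 (R 4.3.3): filterByExpr kept 16111 of 43346 genes (15963 had no count), libraries were TMM-scaled, and LLC1 was compared to PBS by the quasi-likelihood F-test with Benjamini-Hochberg adjustment over all genes tested. SE is the absolute log2 fold change over the square root of F. The exact permutation tests enumerated the 70 arrangements of 4 against 4, 2-sided, on log2 CPM (prior count 2) or on log2 ratios without a prior. The labels do not say more of the mice than a code, and p-values measure the spread between these 8 samples. DESeq2 1.42.0, limma 3.58.1 and other alternatives are given below. Motifs were sought in RefSeq promoters, and exon overlaps taken from GENCODE M21. Python 3.11.15 was used for the rest.

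The 10 genes, the gene lists and the tests were chosen with earlier results of these data known. The named genes were all 10, genes of the lists, first those past the threshold, and for Postn, Fn1, Ctgf and Thbs1 the 3 genes with the highest Pearson r. Gm15270 and Gm42793 were named after the overlaps were seen. Adgre1, a macrophage marker, was not matched by symbol. Promoters of Fn1, Ctgf and Thbs1 were not analysed here.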

Additional observations from a re-analysis of the deposited data

Results flagged for a closer look

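Of 20 groups of 4 mice (10 genes in each group), 4 held a mouse far from the others of its group by Dixon's ratio, where chance gives about 1 in 20. Postn was 19.2 CPM in LLC1 1-3, below the nearest LLC1 mouse at 27.4 CPM, and Thbs4 was 2.63 CPM in the same mouse, below the nearest at 3.82 CPM. Tnc was 1.41 CPM in LLC1 2-2, above the nearest LLC1 mouse at 0.728 CPM, and Cilp was 16.8 CPM in that mouse, above the nearest at 9.08 CPM. Without LLC1 1-3 the log2 fold change of Postn was -1.23 and that of Thbs4, which was not called, was 0.32 (FDR 0.308) in place of 0.20, and without LLC1 2-2 those of Tnc and Cilp were -2.12 and -1.56, so the calls of Postn, Tnc and Cilp did not rest on the mouse that stood apart.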

How the results depend on the processing

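With robust empirical Bayes in edgeR, 3 of the 9 genes tested were called (Postn, Sparc and Tnc), and Fn1 (FDR 0.0839), Thbs1 (0.0748) and Cilp (0.0822) were not. The cause was not tested. The count was 6 with DESeq2, upper-quartile factors, totals alone, at least 10 counts in every mouse, limma-voom or the first number of the code as a covariate, 7 with all genes that had a count (Ctgf added), 5 among codes that start with 1 and 4 to 6 with each mouse left out. Postn, Sparc and Tnc were called in all 17 alternatives, Thbs1 in 16, Cilp in 11 and Fn1 in 9, and the sign of all 9 was the same in all 17. Over all genes, calls numbered 542 to 1949 with a mouse left out and 735 to 1757 under the others, against 1406. No paired analysis was possible because the groups share only the code 1-3, carried by different mice. Counts were lowest for Spp1, at most 19 in a mouse, and then Tnc, at most 70.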
